A study of Mus musculus with 6 samples.

Results

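The genes examined here encode the core of the β-catenin destruction complex and its nuclear partners of the BCL9 family. They are Apc, Apc2, Axin1, Axin2, Gsk3a, Gsk3b, Ctnnb1, Bcl9 and Bcl9l, 9 of the 52550 gene IDs in the table of RNA immunoprecipitation followed by sequencing (RIP-seq), found by matching gene IDs to GENCODE names on GRCm38. The genes were chosen by their place in the complex, and also selected on recovery: the high RIP to input values of Apc2 and Bcl9l were known when the set was drawn up. RIP to input values of the 9 genes are therefore a description: no p-value is given for them, and counts of members past a threshold are printed beside the share of all genes with nothing read from them. All 9 had a mean of at least 1 FPKM (fragments per kilobase of transcript, scaled to sequencing depth) over the 6 libraries, the filter that 11057 genes passed.

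The libraries came from cerebellar granule cells (GCs) of wild-type C57BL/6 mice at postnatal day 8, dissociated with trypsin. There were 2 libraries of input RNA, 2 of RNA recovered with an antibody against YTHDF1 (YTHDF1 RIP) and 2 of RNA recovered with an antibody against YTHDF2 (YTHDF2 RIP). All groups shared the same genotype and age, no agent or deletion was involved, and both RIPs were set against the same 2 input libraries, so the comparisons with input are not independent of each other. The 6 libraries include no RIP with a nonspecific antibody, so background recovery cannot be told apart from association with the reader. No label says that replicates came from separate animals or cultures, so every SD and p-value reflects the spread of these libraries alone, and that spread may be technical.

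In the absence of a Wnt signal, the scaffold proteins Axin and APC hold β-catenin together with casein kinase 1 and glycogen synthase kinase 3, which phosphorylate it and mark it for ubiquitination and degradation. A Wnt signal through Frizzled and LRP receptors and Dishevelled blocks this, and β-catenin then enters the nucleus, where it binds TCF/LEF factors and recruits BCL9 proteins and, through them, Pygopus. In neurons APC and GSK3β also act on microtubules in growing axons. YTHDF1 and YTHDF2 are reader proteins of the cytoplasm, which recognize N6-methyladenosine (m6A) in RNA, and the RIPs asked which mRNAs each of them was associated with in GCs.

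Apart from Ctnnb1, the genes form paralogue pairs, so reads could in principle be shared between partners. The most alike 60 coding bases of Gsk3a and Gsk3b, Axin1 and Axin2, and Bcl9l and Bcl9 are shown to let the partners be compared at the level of sequence. Coordinates and strand are those of GRCm38, sequences were read 5′ to 3′ from the GENCODE transcripts, and capitals mark the bases that differ within a pair.
Gsk3a (chr7:25231681-25231740, minus strand, exonic, coding): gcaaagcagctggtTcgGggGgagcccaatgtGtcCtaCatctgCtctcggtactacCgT
Gsk3b (chr16:38191529-38191588, plus strand, exonic, coding): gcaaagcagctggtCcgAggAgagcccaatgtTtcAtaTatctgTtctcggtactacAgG
Axin1 (chr17:26143233-26143292, plus strand, exonic, coding): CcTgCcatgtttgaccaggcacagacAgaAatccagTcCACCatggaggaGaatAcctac
Axin2 (chr11:108923789-108923848, plus strand, exonic, coding): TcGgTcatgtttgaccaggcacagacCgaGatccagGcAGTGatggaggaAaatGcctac
Bcl9l (chr9:44505938-44505997, plus strand, exonic, coding): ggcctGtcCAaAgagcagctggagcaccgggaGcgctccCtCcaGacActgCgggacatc
Bcl9 (chr3:97210270-97210329, minus strand, exonic, coding): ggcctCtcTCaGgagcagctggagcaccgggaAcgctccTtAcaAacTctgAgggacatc

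Even in these stretches the kinases differed at 9 of 60 bases, the BCL9 genes at 10 and the Axins at 12. Over the longest coding transcripts the longest run of identical bases was 17 in Gsk3a and Gsk3b, 17 in Apc2 and Apc, 20 in Bcl9l and Bcl9 and 21 in Axin1 and Axin2. No pair shared a longer identical stretch. The GSK3 and BCL9 stretches also show the difference in base composition that is taken up again under sequence features. Gsk3a held 35 G or C bases where Gsk3b held 30, and Bcl9l held 40 where Bcl9 held 36. The Axin stretches were close, with 31 in Axin1 and 32 in Axin2.

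The m6A mark is placed in a short consensus around GGAC, and GGACT is a frequent form of it. The occurrence of GGACT nearest the stop codon within the coding sequence and inside 1 exon is shown for the 2 members with the highest RIP to input ratios, with the motif in capitals and flanking bases in lower case.
Apc2 (chr10:80315146-80315175, plus strand, coding): gctgtcctctgcGGACTccacggcctccac
Bcl9l (chr9:44508855-44508884, plus strand, coding): ccaatgcacaggGGACTgggggctcttctc

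GGACT was searched on the sense strand of the longest coding transcript of each gene, and copies of it cannot overlap one another. The Apc2 transcript held 12 copies, 8 in the coding sequence and 4 in the 3′ untranslated region, and the Bcl9l transcript held 8, split into 4 and 4. Gsk3b carried 9, of which 1 was coding and 8 lay in the 3′ untranslated region. Gsk3a carried 1 in all, and none in its coding sequence or 3′ untranslated region. At least 1 copy was found in 92.9% of the coding transcripts of tested genes, at a median of 1.04 per kilobase. Per kilobase Gsk3a held 0.442, Apc 0.624, Bcl9 0.819, Gsk3b 1.08 and Axin2 1.17. Bcl9l held 1.18, Apc2 1.31, Axin1 1.59 and Ctnnb1 1.93. In the last 500 coding bases a copy was present in 3 of the 9 members, Apc, Axin1 and Ctnnb1, and not in Apc2 or Bcl9l. Of tested genes with at least 500 coding bases, 44.9% had a copy there. A match to these letters is not a measured m6A site.

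The libraries differed in ways that touch every value below. Mitochondrially encoded transcripts took 18% to 18.4% of summed FPKM in input and 0.0892% to 3.68% in the RIP libraries, the 10 most abundant genes took 74.4% to 86.5% of the sum in each library, and read counts are not given, so depth is unknown. Across tested genes the replicates correlated at 0.949 in input, 0.798 in the YTHDF1 RIP and 0.823 in the YTHDF2 RIP. Summed FPKM of 12 granule cell markers was 382 and 495 in input, 552 and 414 with the YTHDF1 antibody and 718 and 900 with the YTHDF2 antibody. The 8 astrocyte and Bergmann glia markers summed to 297 and 277, 191 and 128, and 188 and 224, and no marker of any list was at 0 in every library. The 8 oligodendrocyte lineage markers summed to 72.6 and 99.3 FPKM in input, so RNA of other cerebellar cells was present beside that of granule cells. The part of other cell types in the values below was not tested, and less RNA per cell cannot be told apart from fewer cells in bulk samples.

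In input, Apc was the most abundant member at 26.7 ± 5.78 FPKM (SD, n = 2) and Bcl9l the least at 2.03 ± 0.077. Ctnnb1 followed Apc at 18.4 and Gsk3b at 16.5, and the ranges of those 2 genes overlapped. Gsk3a stood at 9.69, Axin1 at 5.42, Apc2 at 4.13, Bcl9 at 3.97 and Axin2 at 2.53. Apc2 and Bcl9 overlapped, and every other neighbour in this order was separated in both libraries. Input therefore held mostly Apc, Ctnnb1 and the 2 kinases, and little of the BCL9 genes, Axin2 and Apc2.

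**Figure D1:**
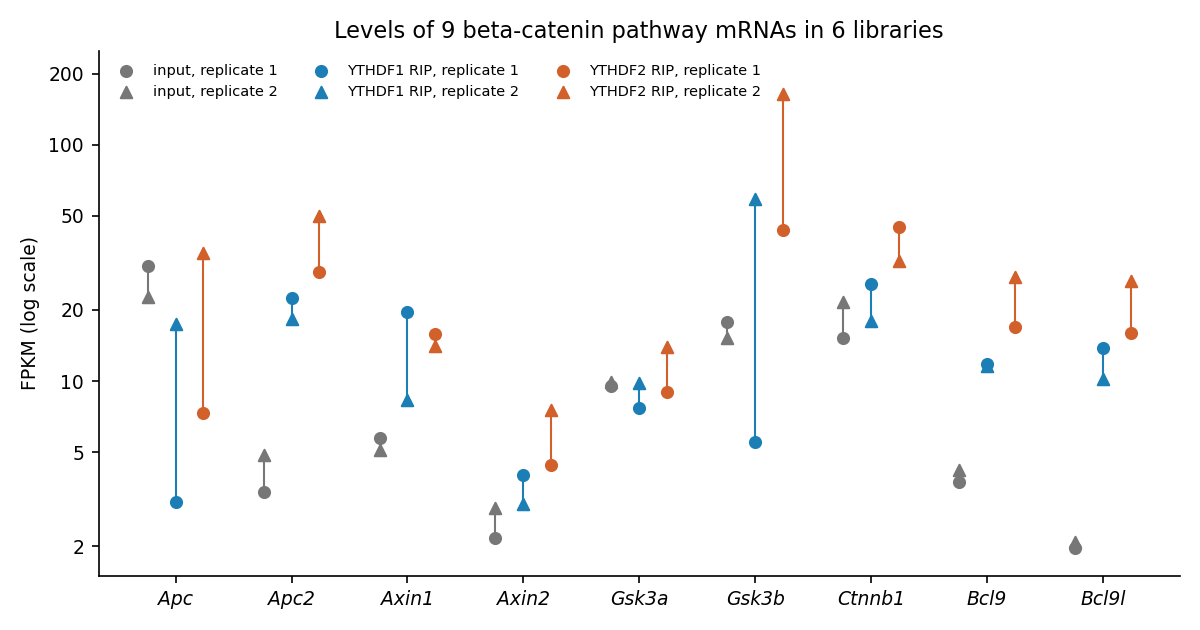
FPKM of the 9 genes on a log axis in each of the 6 libraries, coloured by group (circles: replicate 1; triangles: replicate 2; lines join the 2 replicates of a group). Apc2, Bcl9 and Bcl9l lie above input in every RIP library, Gsk3a stays between 7.68 and 13.9 FPKM, and Apc and Gsk3b differ most between replicates of a RIP.

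Across the set, the RIP libraries did not recover the members alike. Apc2, Bcl9l and Bcl9 stood well above input with both antibodies, Gsk3b did so with the YTHDF2 antibody, Gsk3a stayed at its input level, and Apc was below input in 3 of 4 RIP libraries. The sum over the 9 genes was 90.3 and 88.4 FPKM in input, 113 and 155 FPKM with the YTHDF1 antibody and 187 and 370 FPKM with the YTHDF2 antibody. Apc made up 34.1% and 25.6% of that sum in input, against 2.72% and 11.2% with the YTHDF1 antibody and 3.92% and 9.40% with the YTHDF2 antibody.

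Among the scaffolds, Apc2 had the highest recovery. Apc2 (GRCm38, as all positions here, chr10:80295977-80318263, plus strand) encodes an APC-like protein found mainly in the nervous system that binds β-catenin and microtubules. It was measured at 3.38 and 4.88 FPKM in input, 22.4 and 18.3 FPKM with the YTHDF1 antibody and 29.0 and 49.9 FPKM with the YTHDF2 antibody. The 3 groups did not overlap, with input lowest and the YTHDF2 RIP highest. The ratio of means to input was 4.92 and 9.55, and the log2 change on log2(FPKM + 1) was 2.07 (SE 0.44) in the YTHDF1 RIP and 2.94 (SE 0.44) in the YTHDF2 RIP. These values exceeded those of 99.1% and 99.3% of the tested genes.

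Apc, on chromosome 18, the large scaffold whose loss in colon epithelium stabilizes β-catenin, showed the opposite pattern in the YTHDF1 RIP. Its FPKM was 30.8 and 22.6 in input, 3.09 and 17.4 with the YTHDF1 antibody and 7.33 and 34.8 with the YTHDF2 antibody. Both YTHDF1 RIP libraries were below both input libraries, whereas the YTHDF2 RIP libraries lay on either side of them. The log2 change was -1.66 (SE 0.87) and -0.67 (SE 0.87). In the YTHDF1 RIP it became -0.58 without replicate 1 and -2.74 without replicate 2. Replicate 2 was 5.63-fold replicate 1 in the YTHDF1 RIP and 4.74-fold in the YTHDF2 RIP, while in input it was 0.734-fold. Without replicate 1 of the YTHDF2 RIP the log2 change of Apc became 0.39, and without replicate 2 it became -1.72, so its direction in the YTHDF2 RIP rested on 1 library.

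Axin1 (chr17:26138688-26195811, plus strand), the scaffold present in most cells, was at 5.71 and 5.12 FPKM in input, 19.6 and 8.27 FPKM with the YTHDF1 antibody and 15.9 and 14 FPKM with the YTHDF2 antibody. Every RIP library exceeded both input libraries, but the YTHDF1 RIP replicates spanned the YTHDF2 RIP values. The log2 change was 1.11 (SE 0.46) and 1.31 (SE 0.46), and in the YTHDF1 RIP it was 0.53 without replicate 1 and 1.68 without replicate 2. Axin2 (chr11:108920349-108950783, plus strand), a feedback inhibitor that β-catenin itself induces, was at 2.16 and 2.91 FPKM in input, 4.01 and 3.01 FPKM with the YTHDF1 antibody and 4.40 and 7.56 FPKM with the YTHDF2 antibody. Its lower YTHDF1 RIP library was only just above its higher input library, and its log2 change was 0.35 (SE 0.37) and 0.95 (SE 0.37). Without replicate 1 of the YTHDF1 RIP the former was 0.19.

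The kinases differed from each other. Gsk3a (chr7:25228258-25237851, minus strand), which encodes GSK3α, was at 9.52 and 9.86 FPKM in input, 7.68 and 9.85 FPKM with the YTHDF1 antibody and 8.95 and 13.9 FPKM with the YTHDF2 antibody. All groups overlapped input, with log2 changes of -0.14 (SE 0.39) and 0.19 (SE 0.39). Its sign against input turned with the scaling: it was 0.38 in the YTHDF1 RIP when each library was scaled to the same sum, and -0.14 in the YTHDF2 RIP under median-of-ratios scaling. It also turned to 0.02 without replicate 1 of the YTHDF1 RIP and to -0.10 without replicate 2 of the YTHDF2 RIP.

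Gsk3b (chr16:38089001-38246084, plus strand), which encodes GSK3β, a kinase much studied in axon growth, was at 17.9 and 15.2 FPKM in input, 5.50 and 58.8 FPKM with the YTHDF1 antibody and 43.8 and 163 FPKM with the YTHDF2 antibody. The YTHDF1 RIP libraries lay on either side of input, and both YTHDF2 RIP libraries lay above it. Its log2 change was 0.17 (SE 1.04) in the YTHDF1 RIP and 2.30 (SE 1.04) in the YTHDF2 RIP, the latter above that of 97.4% of tested genes. Replicate 2 was 10.7-fold replicate 1 in the YTHDF1 RIP, a log2 difference on log2(FPKM + 1) above that of 99.8% of tested genes, and 3.74-fold in the YTHDF2 RIP. Without replicate 1 of the YTHDF1 RIP the log2 change against input was 1.78, and without replicate 2 it was -1.43. In the YTHDF2 RIP it was 3.23 without replicate 1 and 1.36 without replicate 2.

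Ctnnb1 (chr9:120929216-120960507, plus strand) encodes β-catenin, the substrate of the complex and also a link between cadherins and actin at cell junctions. It was at 15.2 and 21.6 FPKM in input, 25.6 and 17.9 FPKM with the YTHDF1 antibody and 45 and 32.4 FPKM with the YTHDF2 antibody. The YTHDF1 RIP overlapped input, and the YTHDF2 RIP lay above both other groups. The log2 change was 0.23 (SE 0.45) and 1.03 (SE 0.45). Without replicate 1 of input or of the YTHDF1 RIP, the value for the YTHDF1 RIP was -0.01 in each case.

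Bcl9 and Bcl9l, the co-activators that bridge β-catenin and Pygopus, stood above input with both antibodies. Bcl9 (chr3:97203662-97297917, minus strand) was at 3.74 and 4.2 FPKM in input, 11.8 and 11.6 FPKM with the YTHDF1 antibody and 16.9 and 27.6 FPKM with the YTHDF2 antibody. Bcl9l (chr9:44482825-44511896, plus strand) was at 1.97 and 2.08 FPKM in input, 13.8 and 10.2 FPKM with the YTHDF1 antibody and 16.0 and 26.4 FPKM with the YTHDF2 antibody. For each gene the 3 groups were separate and in the same order, input, YTHDF1 RIP, YTHDF2 RIP. The ratio of means was 2.95 and 5.60 for Bcl9 and 5.92 and 10.5 for Bcl9l. On the log2 scale Bcl9 changed by 1.36 (SE 0.39) and 2.19 (SE 0.39), and Bcl9l by 2.09 (SE 0.40) and 2.83 (SE 0.40).

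As a description of values that had a part in the choice of the genes, limma with Benjamini-Hochberg adjustment over all 11057 genes at 0.05 put 1 of 9 members (Bcl9l) among the genes higher in the YTHDF1 RIP, where 0.624% of all genes were, and 0 among those lower, against 1.94%. In the YTHDF2 RIP 3 of 9 (Apc2, Bcl9 and Bcl9l) were among those higher, with 11.9% of all genes, and 0 among those lower, with 6.66%. The split over all genes turned with scaling: 1313 were higher and 736 lower in the YTHDF2 RIP as deposited, and 978 and 1313 under median-of-ratios scaling. Since these contrasts were known when the set was drawn up, nothing is read from the counts. For fits with 1 library left in a group, effect sizes of the called members are given here. Without input replicate 1 or 2 the log2 change of Bcl9l in the YTHDF1 RIP was 2.06 and 2.12. In the YTHDF2 RIP that of Apc2 was 2.73 and 3.16, that of Bcl9 2.12 and 2.26 and that of Bcl9l 2.81 and 2.86. Without YTHDF1 RIP replicate 1 or 2, Bcl9l was at 1.89 and 2.29 in that RIP. Both RIP libraries lay above both input libraries for 5 members in the YTHDF1 RIP (33.8% of all genes) and for 7 in the YTHDF2 RIP (41.5%). Both lay below input for 1 member, Apc, in the YTHDF1 RIP (30.2%) and for 0 in the YTHDF2 RIP (24.9%). A ratio of mean FPKM to input over 2, set after the fold threshold in the methods but here on group means and with no other filter, was exceeded by 4 members in the YTHDF1 RIP (23.3% of all genes) and 7 in the YTHDF2 RIP (34.5%). The median log2 change of the members was 0.35 and 1.31, against 0.05 and 0.26 over all tested genes. With each library scaled to the same sum the median over all genes became 0.49 and 0.79. Relative to the median of all genes as deposited, Apc2 stood 2.02 and 2.69 higher, Bcl9l 2.04 and 2.58 higher and Bcl9 1.31 and 1.93 higher.

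Ratios of paralogues within a library do not depend on how the library was scaled. Apc2 was at 0.110 and 0.216 of Apc in input, at 7.26 and 1.05 with the YTHDF1 antibody and at 3.96 and 1.44 with the YTHDF2 antibody. Thus Apc exceeded Apc2 in both input libraries, and Apc2 was at or above Apc in all 4 RIP libraries. The mean log2 ratio shifted by 4.16 and 3.95, and stayed between 2.77 and 5.56 in the YTHDF1 RIP and between 3.22 and 4.68 in the YTHDF2 RIP when any 1 library was left out or a pseudocount of 1 was added.

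Of the 4 pairs, Bcl9l relative to Bcl9 had the smallest spread between replicates. It was 0.528 and 0.495 in input, 1.17 and 0.877 with the YTHDF1 antibody and 0.947 and 0.956 with the YTHDF2 antibody. The pair thus went from Bcl9 ahead in input to near parity in every RIP library, a shift of 0.99 and 0.90 on the log2 scale with a pooled SD of 0.17. On log2(FPKM + 1) values the shift was 0.73 and 0.65, and it came down to 0.45 and 0.32 after the adjustment for GC content and length described below, where that of Apc2 against Apc went from 3.72 and 3.61 to 2.23 and 2.16. Gsk3a relative to Gsk3b was 0.533 and 0.650 in input, 0.205 and 0.0851 in the YTHDF2 RIP, and 1.40 and 0.168 in the YTHDF1 RIP, where the replicates fell on opposite sides of input. Axin1 relative to Axin2 was 2.65 and 1.76 in input, 4.88 and 2.75 with the YTHDF1 antibody and 3.61 and 1.85 with the YTHDF2 antibody, which overlapped input.

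**Figure D2:**
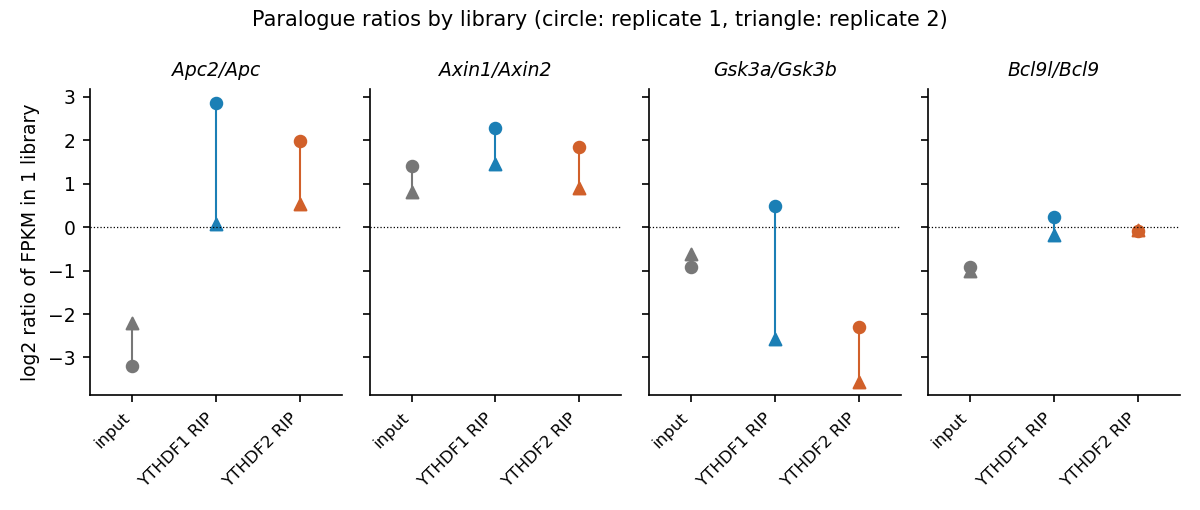
Log2 ratio of the FPKM of paralogues in the same library for each pair (circles: replicate 1; triangles: replicate 2; lines join the replicates of a group; y axis: log2 ratio, where 0 means equal FPKM). Apc2/Apc lies below 0 in both input libraries and above 0 in all 4 RIP libraries, and Bcl9l/Bcl9 moves from about -1 in input to about 0 in the RIPs.

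The comparison of the YTHDF2 RIP with the YTHDF1 RIP was not used in choosing the genes and was tested. It rests on the same RIP libraries whose values against input were known, so it is not fully independent of that choice. None of the 9 members passed (0 called by limma, where 1 gene of 11057, 0.00904%, passed as higher and 0 as lower). Without adjustment 391 genes (3.54%) were higher and 86 (0.778%) lower at a p under 0.05, and 0 of the members were among them in this fit, which has no replicate block. All 9 log2 differences were positive, as were 69.9% of those of all tested genes, with a median of 0.80 in the members and 0.22 overall. The overall median was 0.01 under median-of-ratios scaling and -0.00 without replicate 2 of the YTHDF2 RIP. Apc turned to -0.09 without replicate 1 of the YTHDF1 RIP and to -0.06 without replicate 2 of the YTHDF2 RIP. Axin1 turned to -0.37 without replicate 2 of the YTHDF1 RIP. Such fits set the library left in a RIP against both libraries of the other RIP, so the difference between replicates enters these values. Between same-numbered libraries Apc rose from 3.09 to 7.33 FPKM and from 17.4 to 34.8 FPKM. Axin1 fell between the libraries of replicate 1 and rose between those of replicate 2. For 5 members, Apc2, Axin2, Ctnnb1, Bcl9 and Bcl9l, both YTHDF2 RIP libraries were above both YTHDF1 RIP libraries, which held for 21.6% of all genes. For 0 members both were below (8.09%).

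Gsk3b had the largest log2 difference of the 9, 2.12 (95% interval -0.31 to 4.56, adjusted p = 0.864 by limma), and its 2 groups overlapped. Between same-numbered libraries it rose from 5.50 to 43.8 FPKM and from 58.8 to 163 FPKM. With a replicate block its interval, given under processing below, was narrower and wholly positive, with an adjusted p of 0.531 by limma. Apc2 differed by 0.88 (interval -0.15 to 1.91, adjusted p = 0.864 by limma), Bcl9 by 0.83 (-0.09 to 1.75) and Bcl9l by 0.74 (-0.19 to 1.68), with the same adjusted p. Ctnnb1 differed by 0.80 (-0.25 to 1.85), Axin2 by 0.60 (-0.26 to 1.46) and Apc by 0.99 (-1.04 to 3.03). The smallest differences were those of Gsk3a, 0.33 (-0.58 to 1.24, adjusted p = 0.883 by limma), and Axin1, 0.21 (-0.87 to 1.29, adjusted p = 0.941). Axin1 turned to -0.07 under median-of-ratios scaling and to -0.04 when scaled to nuclear protein-coding genes. With no block, the intervals leave room for differences of more than 2-fold in either direction for Apc alone. They leave room for a higher level in the YTHDF2 RIP of at least that size for every member. With a replicate block the interval of Apc was -0.30 to 2.29.

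Transcript sequence varied widely within the set. The longest coding Apc2 transcript had a GC content of 61.4%, higher than 97.2% of tested genes, Bcl9l 60.1%, Gsk3a 59.8%, Axin1 56.6%, Bcl9 55.4% and Axin2 54.6%. Ctnnb1 was at the median of all genes with 50.3%, and Gsk3b (46.1%) and Apc (44.3%) were below it. Paralogues therefore differed most in the APC and GSK3 pairs, and the gap was also present at the third codon position, where Apc2 had 66.1% G or C and Apc 41.0%, and Gsk3a had 65.9% and Gsk3b 46.7%. Lengths ran from 2260 bases in Gsk3a to 12811 in Apc, and Gsk3b (8303 bases, with a 3′ untranslated region of 5518), Apc2 (9173) and Apc were longer than 94.7%, 96.4% and 99.1% of tested genes.

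Recovery moved with GC content over all genes. From the lowest to the highest quintile of GC content, the median log2 change was -0.60, -0.21, 0.07, 0.36 and 0.64 in the YTHDF1 RIP, and it was -0.31, 0.00, 0.27, 0.50 and 0.80 in the YTHDF2 RIP. Apc2, Axin1, Gsk3a and Bcl9l were in the highest quintile, Axin2 and Bcl9 in the next, Ctnnb1 in the middle and Apc and Gsk3b in the second lowest. Gsk3a, with a GC content like that of Bcl9l, stood below the median of its quintile in both RIPs, and Gsk3b stood above that of its own by more than 2 log2 units in the YTHDF2 RIP.

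**Figure D3:**
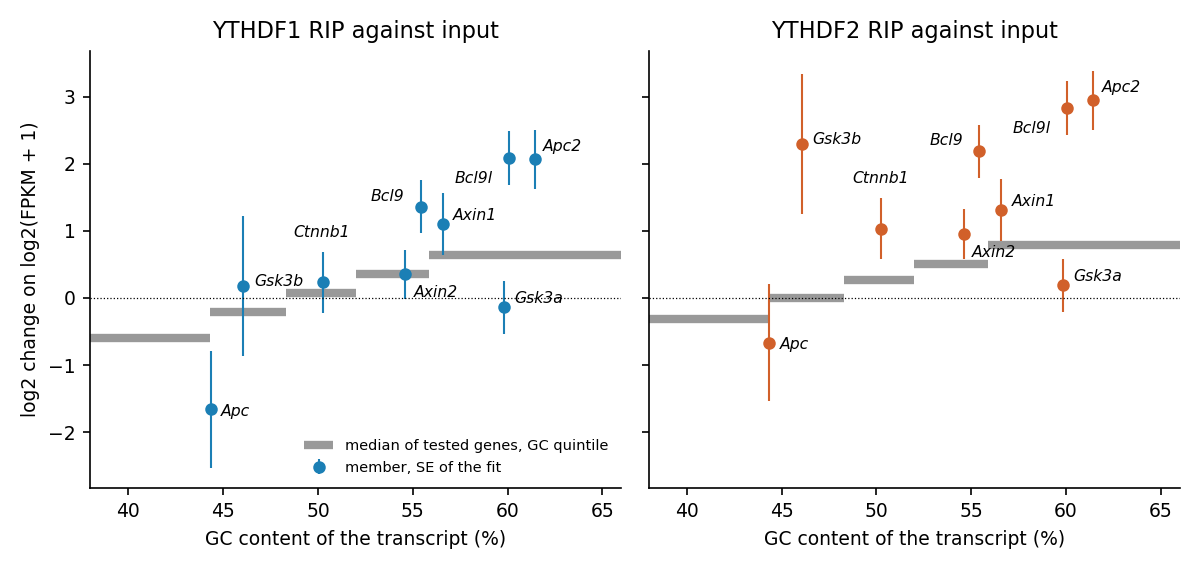
Log2 change on log2(FPKM + 1) against GC content of the transcript (%) for the 9 genes (points, bars: SE of the fit, 2 libraries a group) and the median of all tested genes in each quintile of GC content (grey bars). Gsk3a lies under the grey bar of its quintile in both panels while Apc2 and Bcl9l lie over it.

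The replicate difference moved with GC content too. In the YTHDF1 RIP the median of replicate 2 minus replicate 1 was 0.72 in the lowest quintile and -0.33 in the highest, in the YTHDF2 RIP it was 0.96 and -0.04, and in input -0.16 and 0.11. Apc and Gsk3b, the members lowest in GC content, had the largest replicate differences in the RIPs. They were 2.17 and 3.20 with the YTHDF1 antibody and 2.10 and 1.88 with the YTHDF2 antibody, against medians of 0.34 and 0.61 in their quintile. Axin1, in the highest quintile, was at -1.15 with the YTHDF1 antibody, where 4.99% of tested genes lay lower. With the YTHDF2 antibody Axin1 was at -0.17. Whether base composition had a part in these differences was not tested.

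When each library's log2 values were adjusted for GC content and length over all genes, the values of the GC-rich members came down. In the YTHDF1 RIP Apc2 went from 2.07 to 0.89, Bcl9l from 2.09 to 0.93, Bcl9 from 1.36 to 0.48 and Axin1 from 1.11 to 0.34. In the YTHDF2 RIP Apc2 went to 1.19, Bcl9l to 1.17, Bcl9 to 0.86 and Axin1 to 0.24. Axin2 turned negative with -0.34 and -0.09, and Gsk3a stood at -0.67 and -0.48. Gsk3b (0.19 and 1.77) and Apc (-1.34 and -0.97) changed less than these GC-rich members, though Gsk3b came down from 2.30 in the YTHDF2 RIP. Ctnnb1, at the median GC content, went from 0.23 to 0.04 in the YTHDF1 RIP and from 1.03 to 0.55 in the YTHDF2 RIP. The adjustment kept the order of partners, with Apc2 above Apc, Axin1 above Axin2, Gsk3b above Gsk3a and Bcl9l above Bcl9 in both RIPs. Without adjustment, that order did not hold in every fit with a library left out. Without YTHDF1 RIP replicate 2, Gsk3b (-1.43) was below Gsk3a (-0.30) in that RIP. Without YTHDF2 RIP replicate 1, Axin1 (1.23) was just below Axin2 (1.28) in that RIP.

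**Figure D4:**
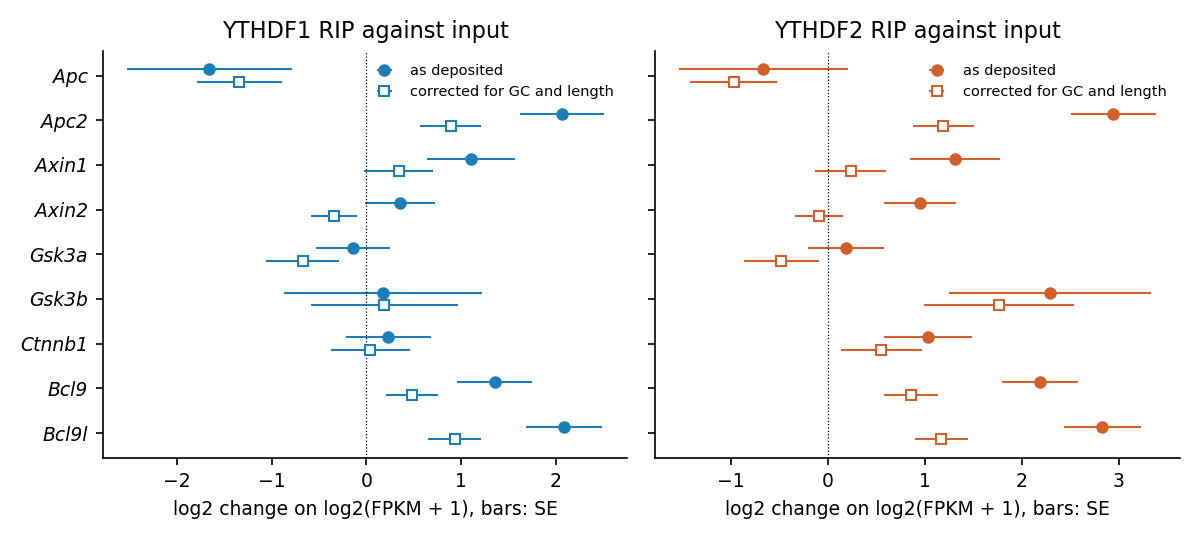
Log2 change on log2(FPKM + 1) of the 9 genes as deposited (filled circles) and after adjustment for GC content and length over all genes (open squares), bars: SE of the fit. Apc2, Bcl9, Bcl9l and Axin1 shift toward 0, and Apc and Gsk3b shift less.

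Other genes of the pathway were counted from lists that were likewise drawn up with earlier results of these data known, so the counts and the genes named, those with the highest values among the called, are a description. The shares of all genes to read them against are 0.624% higher and 1.94% lower with the YTHDF1 antibody and 11.9% and 6.66% with the YTHDF2 antibody. With no adjustment, at a p under 0.05, they are 13.2% and 13.5%, and 24% and 13.6%. Of 25 accessory factors of the destruction complex (casein kinases, phosphatase and ubiquitin ligase subunits, AMER and DACT proteins), 0 passed in the YTHDF1 RIP by limma (unadjusted 5 higher and 0 lower), and 4 were higher and 0 lower in the YTHDF2 RIP (unadjusted 5 and 2). Their medians, -0.01 and 0.28, were close to those of all genes (0.05 and 0.26), and 4 of 25 and 2 of the 19 nuclear partners are near the share of all genes. Amer3, of a family that binds APC, went from 1.01 ± 0.567 to 8.69 ± 3.0 FPKM (n = 2 each, log2 change 2.26, SE 0.40), and Dact1, a Dishevelled-binding regulator, from 2.51 to 15.5 FPKM (2.23, SE 0.35).

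Of 19 tested nuclear partners of β-catenin 0 passed in the YTHDF1 RIP by limma (2 higher and 0 lower unadjusted), and 2 were higher and 0 lower in the YTHDF2 RIP (unadjusted 5 and 0). Pygo2, which encodes a Pygopus protein that BCL9 proteins bind, went from 1.47 to 6.37 FPKM (log2 change 1.57). The co-repressor gene Tle3 went from 2.42 to 7.70 FPKM (1.34). Upstream, 1 of 20 tested receptors and transducers was called higher in the YTHDF1 RIP and 9 in the YTHDF2 RIP, with 0 lower in either (unadjusted 8 and 12 higher, 0 lower). The receptor gene Fzd1 went from 3.23 FPKM in input to 17.7 in the YTHDF1 RIP (log2 change 2.14) and 27.1 in the YTHDF2 RIP (2.71), and Fzd2 from 1.77 to 14.9 in the latter (2.5). The list medians were 0.21 and 0.56 for nuclear partners and 0.67 and 1.16 for receptors and transducers.

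The 13 adhesion partners, through which β-catenin works at junctions, gave 0 calls with either antibody by limma (unadjusted 2 lower in the YTHDF1 RIP and 2 higher in the YTHDF2 RIP) and medians of -0.11 and 0.32. Of 10 tested β-catenin target genes, a list that includes Axin2, 0 passed in the YTHDF1 RIP by limma (3 higher and 0 lower unadjusted), and 4 were higher and 0 lower in the YTHDF2 RIP (unadjusted 6 and 0), with medians of 0.46 and 0.94. Sp5, a transcription factor gene, went from 0.902 to 10.9 FPKM (log2 change 2.62) and Apcdd1, a Wnt inhibitor gene, from 7.97 to 36.2 FPKM (2.04). Between the YTHDF2 RIP and the YTHDF1 RIP 0 genes of these lists passed by limma, and 1 accessory factor and 1 target gene were higher unadjusted. A fit with 1 input library left gave almost no calls over all genes in the YTHDF2 RIP, so calls of these lists could not be compared there.

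Over the 6 libraries, the gene with the profile most like that of Bcl9l was Zfp280b, at a Euclidean distance of 0.222 on centred log2(FPKM + 1) values, followed by Apc2 at 0.317 and Fam131b at 0.330. For Apc2 the nearest were Zfp280b (0.307), Bcl9l (0.317) and Gm47297 (0.385). These distances rest on the library values that had a part in the choice of Apc2 and Bcl9l, so their closeness to each other is no finding. Zfp280b, a zinc finger gene, was at 0.545 and 0.683 FPKM in input, 5.95 and 4.77 FPKM with the YTHDF1 antibody and 8.72 and 12.7 FPKM with the YTHDF2 antibody, and its transcript had a GC content of 47.2%.

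Some members share their locus with another gene, and no source used here says whether counting used strand. On the opposite strand, 2310011J03Rik overlaps Apc2 and was listed at 1.02 to 5.11 FPKM, 9130221H12Rik overlaps Gsk3a at 1.60 to 7.28 FPKM, and Gm47205 overlaps Bcl9l at 0.309 to 4.53 FPKM. In each library these genes were below the member they overlap. Without strand, reads of such partners cannot be told apart, and the FPKM of Apc2, Gsk3a and Bcl9l is uncertain to that extent. Other overlapping genes reached at most 1.11 FPKM, except a snoRNA inside Gsk3b that reached 3.01 FPKM.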

How the data were processed

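The authors deposited 1 table of FPKM values per gene ID and library. Their RIP-seq methods name STAR and Cufflinks on GRCm38 and FPKM as the normalization, whereas the submitters' processing notes list Bowtie 0.12.2 with mm8 and mm9, and this difference is not resolved. The labels name both an unstranded and a stranded kit. No column was without a sample. Values were analysed as log2(FPKM + 1) with limma 3.58.1 (lmFit, eBayes with trend, R 4.3.3), 3 groups of 2 in 1 fit, no block, for genes with a mean FPKM of at least 1, 2-sided, Benjamini-Hochberg adjusted at 0.05. Such log2 changes understate those of low genes. Of 52550 gene IDs 147 had no annotation in GENCODE M21. GC content and length came from the longest coding transcript (or the longest transcript of a non-coding gene), for 11041 of 11057 genes. Depth is unknown, so no counting interval is given. Limma was also run on simulated data in which each gene's spread was capped at the median over genes. That setting is quieter than these data, so it says nothing about genes with a larger spread. Named genes are the 9 members, up to 2 genes with the largest called rise or fall per list and contrast, and the 3 nearest profiles of Apc2 and Bcl9l. The members and lists were chosen with earlier results of these data known. Alternatives were another pseudocount and filters, 3 scalings, a replicate block, GC and length adjustment, the ratio rule and leaving out each library.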

Additional observations from a re-analysis of the deposited data

How the results depend on the processing

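Counts of members against input describe values that had a part in the choice of the genes, so their stability is no evidence about the members. In the YTHDF1 RIP the count of members higher than input, 1 as reported, was 0 with no filter on low values, 0 with each library scaled to the same sum and 0 after GC and length adjustment. It was 2 with a mean FPKM of at least 5, 2 when scaled to nuclear protein-coding genes and 2 under median-of-ratios scaling, where Apc2 joined Bcl9l, and 4 by the ratio over 2. Counts over all genes moved too, from 69 of 11057 as reported to 0, 0 and 192 under the first 3 alternatives. They were 171 of 3930 at a mean FPKM of at least 5, 226 and 212 under the 2 scalings, and 2579 by the ratio. Leaving out 1 library, where the lone library left in its group is assumed to vary like the others, also moved the calls over all genes. Member counts are therefore not compared there. In the YTHDF2 RIP the count, 3 as reported, was 0 with no filter, 6 with each library scaled to the same sum and 7 by the ratio over 2. It was 3 at a pseudocount of 0.1, and 2 (Apc2 and Bcl9l) after GC and length adjustment. Over all genes the count was 1313 as reported, 0 with no filter, 2271 with the same sum and 3812 by the ratio. It was 1434 at a pseudocount of 0.1 and 893 after GC and length adjustment. The count between the RIPs was 0 under every alternative run.

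Replicate numbers are shared between groups, but no label says that they mark a shared batch. Deviations of same-numbered libraries correlated at -0.14 between input and either RIP and at 0.68 between the RIPs. The fit reported above had no block, so the difference shared by same-numbered RIP libraries stayed in its spread. With a replicate block 2 members (Apc2 and Bcl9l) passed in the YTHDF1 RIP and 5 in the YTHDF2 RIP, with Axin1 and Gsk3b added. The block together with GC and length adjustment gave 0 and 2. Between the RIPs, the pair of groups with the correlation of 0.68, the block gave 0 members after adjustment. There Gsk3b was 2.12 with a 95% interval of 0.66 to 3.59 (unadjusted p = 0.00779, adjusted p = 0.531 by limma), and with the block and the GC and length adjustment 1.58 (0.22 to 2.94, adjusted p = 0.616). The other 8 members had unadjusted p-values from 0.0801 to 0.659 with the block.

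Over all genes, the YTHDF1 RIP had 69 higher and 215 lower, and the YTHDF2 RIP had 1313 and 736. With no filter both became 0 and 0 (at an unadjusted p under 0.05, 1815 and 2107 with the YTHDF1 antibody and 3457 and 2101 with the YTHDF2 antibody, by limma). The split in the YTHDF2 RIP was 978 higher and 1313 lower under median-of-ratios scaling, 1191 and 1064 when scaled to nuclear protein-coding genes, 2271 and 225 with equal sums, 893 and 840 after GC and length adjustment, 2177 and 1172 with the block, and 387 and 473 without replicate 2 of the YTHDF2 RIP. In the YTHDF1 RIP it was 212 and 581, 226 and 378, 0 and 0 (unadjusted 2533 and 487), 192 and 300, and 571 and 861 under the first 5 of these. Without input replicate 1 the YTHDF2 RIP had 1 and 8, without input replicate 2 it had 0 and 0 (unadjusted 1383 and 812). The median of all genes was 0.49 and 0.79 with equal sums. The sign of a member against input turned in 7 of 134 values for the YTHDF1 RIP and in 8 of 134 for the YTHDF2 RIP, none of them of Apc2, Axin1, Bcl9 or Bcl9l. Axin2 was not tested at a mean FPKM of at least 5. The cause of these shifts was not tested.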
